A study of Mus musculus with 6 samples.

Results

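The lysosomal cathepsins and legumain are the proteases that break down protein in the endosomes and lysosomes of macrophages. Their RNA was followed here in mouse macrophages with and without RKIP, the Raf kinase inhibitor protein, which is encoded by Pebp1. The genes were chosen by symbol from the deposited gene table, and all 10 were found among its 27458 genes: Ctsa, Ctsb, Ctsc, Ctsd, Ctsh, Ctsl, Ctso, Ctss, Ctsz and Lgmn. All 10 also had a mean of 1 FPKM or more (fragments per kilobase of transcript, scaled to the total of the library) and so were among the 11636 genes tested.

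RNA was sequenced from primary macrophages of bone marrow, 3 libraries of wild-type genotype (WT) and 3 of RKIP knockout genotype (KO). Both groups were treated with macrophage colony-stimulating factor (M-CSF), the growth factor that drives marrow progenitors towards macrophages, and no group without it was analysed here. The study asked how RKIP acts on macrophage differentiation. The design text names RKIP+/+ and RKIP-/- mice. The sources used here give neither the age of the mice nor the way the allele was made, and no label states whether each library is a separate animal or culture. The p-values therefore speak only of how far these libraries vary, and that variation may be technical.

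Most cathepsins are cysteine proteases of the papain family. Ctsd is an aspartic protease, Ctsa a serine carboxypeptidase, and legumain a cysteine protease that cuts after asparagine and belongs to another family. They are made as inactive precursors, carried to the lysosome largely by mannose 6-phosphate receptors, and activated in the acid that the vacuolar proton pump maintains. In macrophages they digest what the cell takes up, mature other lysosomal enzymes and trim proteins for presentation on MHC class II, and cystatins and related inhibitors hold them in check outside the lysosome.

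The libraries held 53188659 to 70059042 estimated counts each. Pebp1 was 39.2, 33.2 and 39.0 FPKM in the WT libraries and its count was 0 in each KO library. Set against a floor of 12 counts (3 fragments) per library, it was at least 413-fold lower in KO. Macrophage markers were high in every library, with a summed level of 1827 to 1843 FPKM over 8 genes in WT and 1927 to 2027 in KO. Stromal transcripts were high as well, 952 to 1055 FPKM over 7 genes in WT and 981 to 1097 in KO, led by the collagen gene Col1a1 (486 ± 31.8 FPKM in WT and 459.8 ± 35.6 in KO, SD, n = 3), so transcripts typical of fibroblasts were present beside those of macrophages. Neutrophil markers differed most, at 86.6 to 174 FPKM over 12 genes in WT and 16.8 to 17.5 in KO. Of the 9 tested 8 were lower in KO, against 19.4% of all genes tested. In RNA from a whole culture, fewer cells of a type and less RNA per cell cannot be told apart.

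Promoter windows are shown first for the genes whose level changed most clearly, and for the 2 members in which the core of a known lysosomal element has 2 matches. Lysosomal genes often carry the CLEAR element, an E-box bound by the MiT factors Tfeb, Tfe3, Tfec and Mitf, with CACGTG at its core. RefSeq promoter entries, from 250 bases before to 50 bases after the start of transcription on GRCm38.p6, matched 8 of the 10 genes by symbol and gave 10 windows; Ctsb and Ctsh had none. Each window was searched on both strands, and capitals mark the matched letters as they read on the strand printed. The core CACGTG lies in 1 window each of Ctsa, Ctsd, Ctsl and Lgmn, against 7.15% of all 32851 RefSeq windows. In Ctsd, the most abundant member, the matches begin 245 and 98 bases before the start in chr7:142387778-142388077, read on the minus strand. In Ctsa they begin 12 bases before the start and at base 6 of the transcript, in chr2:164833523-164833822 on the plus strand. The last bases of the Lgmn window with a match were not found in any GENCODE M21 transcript of that gene. No window of the 10 genes holds the full palindrome, the core with GT before it and AC after it, which 0.326% of all windows hold.
Ctsd: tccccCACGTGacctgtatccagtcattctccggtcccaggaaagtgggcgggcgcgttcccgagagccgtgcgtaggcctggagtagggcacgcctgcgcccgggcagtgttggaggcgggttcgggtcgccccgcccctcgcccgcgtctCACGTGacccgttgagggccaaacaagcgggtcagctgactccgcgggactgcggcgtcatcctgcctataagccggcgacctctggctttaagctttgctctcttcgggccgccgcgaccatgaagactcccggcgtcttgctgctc
Ctsa: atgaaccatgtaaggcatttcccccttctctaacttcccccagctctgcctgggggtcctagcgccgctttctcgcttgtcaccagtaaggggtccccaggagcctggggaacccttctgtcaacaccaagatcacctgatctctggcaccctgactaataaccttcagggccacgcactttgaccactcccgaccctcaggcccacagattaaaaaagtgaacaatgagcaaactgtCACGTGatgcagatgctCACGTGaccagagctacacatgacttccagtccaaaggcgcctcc

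Ctss, which fell in KO, and Ctsc and Ctso, which rose (below), are shown with 3 other searched elements. GAGGAA, the core bound by the myeloid factor PU.1, has 2 matches in each of the windows of Ctss and Ctsc, against 28.3% of all windows with at least 1 match. TTCNNNGAA, the element bound by STAT factors, lies in the window of Ctsc, against 8.3% of all windows. A core of the interferon response element, GAAA repeated after 2 bases of any kind, lies in the windows of Ctss and Ctso, the latter with a pair of overlapping matches, against 3.44% of all windows. The windows are chr3:95526536-95526835 for Ctss, chr7:88277835-88278134 for Ctsc and chr3:81932351-81932650 for Ctso, all on the plus strand. Where GAGGAA lies on the other strand, its reverse complement is in capitals. A match is a description of the letters and not a measured binding site.
Ctss: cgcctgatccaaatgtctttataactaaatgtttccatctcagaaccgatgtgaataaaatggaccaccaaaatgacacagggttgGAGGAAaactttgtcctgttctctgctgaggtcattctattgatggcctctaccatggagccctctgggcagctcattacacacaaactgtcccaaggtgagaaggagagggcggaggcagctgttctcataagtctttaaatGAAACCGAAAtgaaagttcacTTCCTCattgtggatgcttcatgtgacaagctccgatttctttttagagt
Ctsc: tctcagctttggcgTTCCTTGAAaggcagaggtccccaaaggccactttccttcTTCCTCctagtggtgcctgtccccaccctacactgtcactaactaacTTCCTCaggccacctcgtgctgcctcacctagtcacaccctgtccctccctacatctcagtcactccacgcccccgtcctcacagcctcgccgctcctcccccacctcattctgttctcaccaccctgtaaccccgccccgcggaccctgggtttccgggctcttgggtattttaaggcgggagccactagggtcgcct
Ctso: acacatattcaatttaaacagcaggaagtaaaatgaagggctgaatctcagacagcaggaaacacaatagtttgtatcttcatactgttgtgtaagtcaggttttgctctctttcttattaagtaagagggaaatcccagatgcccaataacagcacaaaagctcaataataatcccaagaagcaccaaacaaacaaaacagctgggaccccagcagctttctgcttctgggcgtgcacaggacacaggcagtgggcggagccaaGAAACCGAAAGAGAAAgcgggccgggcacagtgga

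Without a correction for transcript length, the largest fall among the 10 genes in KO was that of Ctss and the largest rises were those of Ctso and Ctsc. Ctsc and Ctso were higher, Ctsd, Ctss, Ctsz and Ctsh were lower, and Ctsa, Ctsb, Ctsl and Lgmn did not pass the test (edgeR quasi-likelihood test on the estimated counts, two-sided, Benjamini-Hochberg adjusted p under 0.05 over 11636 genes). All changes were small, with log2 fold changes (KO over WT) from -0.35 to 0.27. Over the whole table tested, 20.3% of genes passed as higher and 19.4% as lower, 39.7% in either direction, so the 2 higher of 10 stood at the share of the table, and the 4 lower, 1 of them with overlapping groups, were above it. With limma on log2(FPKM + 1) the split over all genes was 23.7% higher and 13.7% lower (37.4% in all), and 2 of the 10 were higher and 2 lower. The median log2 fold change of the 10 was -0.10, against -0.008 over all genes tested, and their median absolute change was 0.17 against 0.16. In FPKM, 3 genes were higher in every KO than in every WT library and 3 lower in every one, against 32.4% and 19.1% of all tested genes (51.5% in all).

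**Figure D1:**
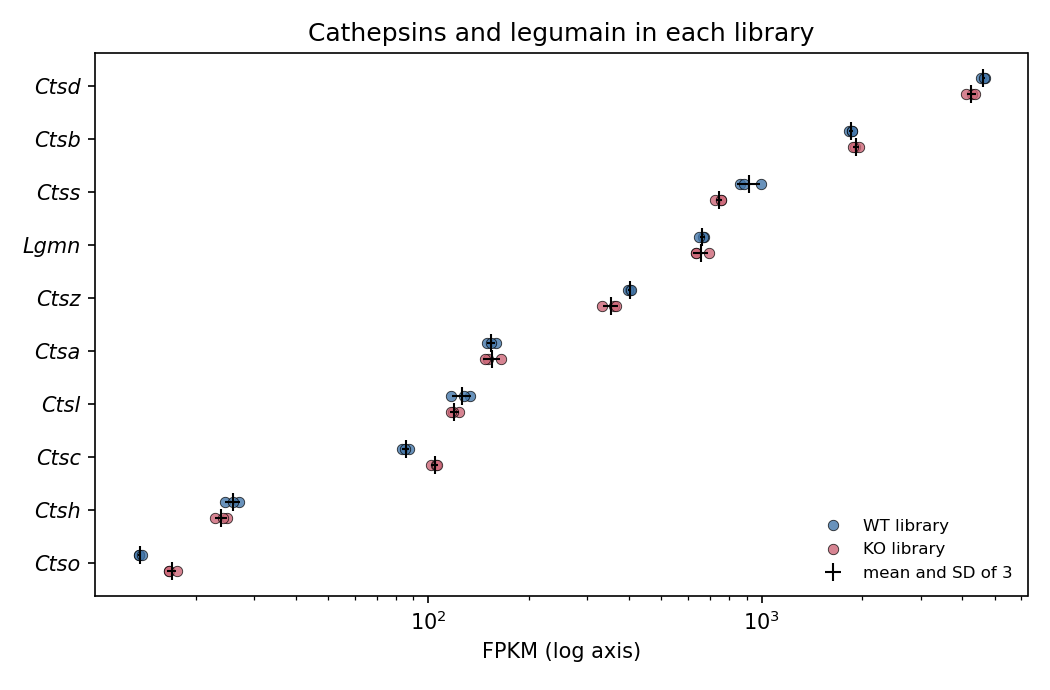
FPKM (log axis) of each gene in the 3 WT (blue) and 3 KO (red) libraries, with the mean and SD of each group. The genes are ordered by mean level, from Ctsd to Ctso, and the groups separate for Ctsd, Ctsb, Ctss, Ctsz, Ctsc and Ctso.

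Ctsd, the aspartic protease cathepsin D, lies on chromosome 7 from 142375911 to 142388038 on the minus strand (ENSMUSG00000007891) and overlaps the gene model Gm49369 (0.11 FPKM), to which it is identical over 671 bases, so the split of reads between them is uncertain. It was the 5th most abundant of all genes in the table. It stood at 4556, 4664 and 4646 FPKM in the WT libraries and 4276, 4364 and 4109.65 FPKM in the KO libraries. Every KO library was below every WT library, by little relative to the level. The mean fell from 4622 ± 57.8 to 4250.1 ± 129 FPKM, with a log2 fold change of -0.17 ± 0.03 (approximate SE, edgeR, adjusted p = 0.00121). In limma on log2(FPKM + 1) the difference was -0.12 and no longer passed (adjusted p = 0.0680), and with offsets for length and GC content it was -0.08 to -0.02 (below).

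Ctss, cathepsin S, is a cysteine endopeptidase that stays active at neutral pH and degrades the invariant chain of MHC class II. It lies on chromosome 3 from 95526786 to 95556403, plus strand (ENSMUSG00000038642). It was 997, 863 and 886 FPKM in the WT libraries and 753, 724 and 754 FPKM in the KO libraries. WT library 1 was the highest and stood apart from the other WT libraries, and no KO library reached the WT range. The mean fell from 915 ± 71.9 to 744 ± 16.8 FPKM, with a log2 fold change of -0.35 ± 0.05 (edgeR, adjusted p = 0.000346), and without WT replicate 1 it was -0.29. With offsets for length and GC content it was -0.21 to -0.10 (below). The neighbouring Ctsk, the collagenase cathepsin K of osteoclasts, ends 17423 bases before it on the same chromosome and also fell (below).

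Ctsl, cathepsin L, another cysteine endopeptidase of the papain family, lies on chromosome 13 from 64359337 to 64370890 on the minus strand (ENSMUSG00000021477). It was 133, 128 and 117 FPKM in the WT libraries and 124, 119 and 117 FPKM in the KO libraries. The groups overlapped, and the range of WT was the wider one. The mean was 126 ± 8.38 FPKM in WT and 119.7 ± 3.47 in KO, and the log2 fold change of -0.13 ± 0.05 did not pass (edgeR, adjusted p = 0.0690). It passed as lower in 9 of the 20 alternatives, among them DESeq2 (-0.12, adjusted p = 0.0332). Its longest transcript holds a copy of the ribosomal protein gene Rps13 (the gene model Gm49230, identical over 395 bases), so its length and its share of reads are uncertain.

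Ctsb, cathepsin B, works both inside chains and as a carboxypeptidase that removes dipeptides, and lies on chromosome 14 from 63122462 to 63145923 on the plus strand (ENSMUSG00000021939). It was 1825, 1864 and 1868 FPKM in the WT libraries and 1899.84, 1958 and 1883 FPKM in the KO libraries. Every KO library was above every WT library in FPKM, by a ratio of means of 1.03. On the TMM-scaled counts the change was -0.01 ± 0.03 (edgeR, adjusted p = 0.878), which did not pass. The FPKM and the TMM-scaled counts thus differ in sign for this gene. The other members also stood higher in limma on log2(FPKM + 1) than in edgeR, such as Ctsc (log2 fold change 0.29 against 0.24) and Ctss (-0.30 against -0.35). It overlaps 774 bases of exon of Fdft1 (7.75 FPKM) on the other strand and has a processed pseudogene, Gm14032, of 87.3% identity, so some of its reads are uncertain.

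Ctsz, cathepsin Z (also called X), a carboxypeptidase that removes 1 residue at a time, lies on chromosome 2 from 174427493 to 174439039 on the minus strand (ENSMUSG00000016256). It stood at 404, 397 and 404 FPKM in the WT libraries and 360.4, 366 and 332 FPKM in the KO libraries. The WT libraries were nearly alike, and KO library 3 was the lowest. The mean fell from 402 ± 3.82 to 353 ± 18.2 FPKM (edgeR log2 fold change -0.24 ± 0.05, adjusted p = 0.00166). The call was lost with each of 3 offsets for length and GC content, at values from -0.07 to -0.004 (below).

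Ctsc, cathepsin C or dipeptidyl peptidase 1, removes dipeptides from amino termini and activates the granule serine proteases of neutrophils and cytotoxic cells. It lies on chromosome 7 from 88278085 to 88310888 on the plus strand (ENSMUSG00000030560). It was 87.6, 83.5 and 85.1 FPKM in the WT libraries and 102, 105 and 106 FPKM in the KO libraries. Each KO library was above each WT library with a gap wider than the spread within either group. The mean rose from 85.4 ± 2.08 to 104 ± 2.46 FPKM (edgeR log2 fold change 0.24 ± 0.04, adjusted p = 0.000582).

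Ctsh, cathepsin H, an aminopeptidase, lies on chromosome 9 from 90054152 to 90076089 on the plus strand (ENSMUSG00000032359). It was 27.1, 24.4 and 26.0 FPKM in the WT libraries and 24.8, 22.8 and 24.1 FPKM in the KO libraries. The groups overlapped, since KO library 1 was above WT library 2. The mean fell from 25.8 ± 1.33 to 23.9 ± 0.993 FPKM, and the log2 fold change of -0.17 ± 0.05 passed by little (edgeR, adjusted p = 0.0253). The call was lost on leaving out WT replicate 1 (-0.13, edgeR, adjusted p = 0.0969), WT replicate 3, KO replicate 2 or KO replicate 3, and in 10 of the 20 alternatives in all. Its processed pseudogene Gm5398 is 85.0% identical.

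Ctso, cathepsin O, a widely expressed cysteine cathepsin whose substrates are little known, lies on chromosome 3 from 81932601 to 81956725 on the plus strand (ENSMUSG00000028015). It was 13.5, 13.5 and 13.8 FPKM in the WT libraries and 16.7, 16.6 and 17.6 FPKM in the KO libraries. WT libraries were almost equal and every KO library was above them. The mean rose from 13.6 ± 0.174 to 17.0 ± 0.550 FPKM (edgeR log2 fold change 0.27 ± 0.04, adjusted p = 0.000436).

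Ctsa, the protective protein of lysosomal sialidase and beta-galactosidase and a serine carboxypeptidase, lies on chromosome 2 from 164832873 to 164840019 on the plus strand (ENSMUSG00000017760). It was 150.3, 159 and 154 FPKM in the WT libraries and 151, 165 and 148 FPKM in the KO libraries. The groups overlapped, with means of 154 ± 4.34 and 155 ± 9.47 FPKM (edgeR log2 fold change -0.05 ± 0.05, adjusted p = 0.426). It overlaps the exons of Pltp, a gene on the other strand at 159 FPKM, by 495 bases, and the use of strand in the counting is not given in the sources used here.

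Lgmn, legumain, cuts after asparagine and helps to process cathepsins and antigens, and lies on chromosome 12 from 102394084 to 102439813 on the minus strand (ENSMUSG00000021190). It stood at 672, 665 and 649.7 FPKM in the WT libraries and 637, 694 and 634 FPKM in the KO libraries. KO library 2 was the highest of all 6 and the other KO libraries the lowest. Its processed pseudogene Gm17833 is 76.0% identical. The means were 662 ± 11.2 and 655 ± 33.7 FPKM (edgeR log2 fold change -0.07 ± 0.04, adjusted p = 0.190).

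The direction of these changes was read again after edgeR was given an offset for each library, a smooth curve on length and GC content, with the length taken from the longest transcript, the principal transcript or all exons merged. With those offsets 31.6%, 31.8% and 33.8% of all genes tested were called, 17%, 17.1% and 18.2% as higher and 14.6%, 14.7% and 15.6% as lower, beside 2 of the 10 genes higher with each and 4, 3 and 1 lower. The log2 fold change of Ctss was -0.15, -0.21 and -0.10, the last of them not past the test (adjusted p = 0.0849). For Ctsz it was -0.05, -0.07 and -0.004, none of them past the test (adjusted p = 0.355, 0.134 and 0.946, edgeR). For Ctsd it was -0.05, -0.08 and -0.02 (adjusted p = 0.0481, 0.00512 and 0.532, edgeR). The rises held with all 3 offsets, at 0.17, 0.19 and 0.10 for Ctsc and 0.20, 0.14 and 0.17 for Ctso (highest adjusted p = 0.0445 and 0.00932, edgeR). Ctsl passed as lower with the longest transcript (-0.30, edgeR, adjusted p = 0.000975) and with all exons merged (-0.22, adjusted p = 0.00455), and not with its much shorter principal transcript (-0.11, adjusted p = 0.0877). Ctsb, near 0 without an offset, was lower with the longest and principal transcripts (-0.06 and -0.10, edgeR, adjusted p = 0.0420 and 0.00589).

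**Figure D2:**
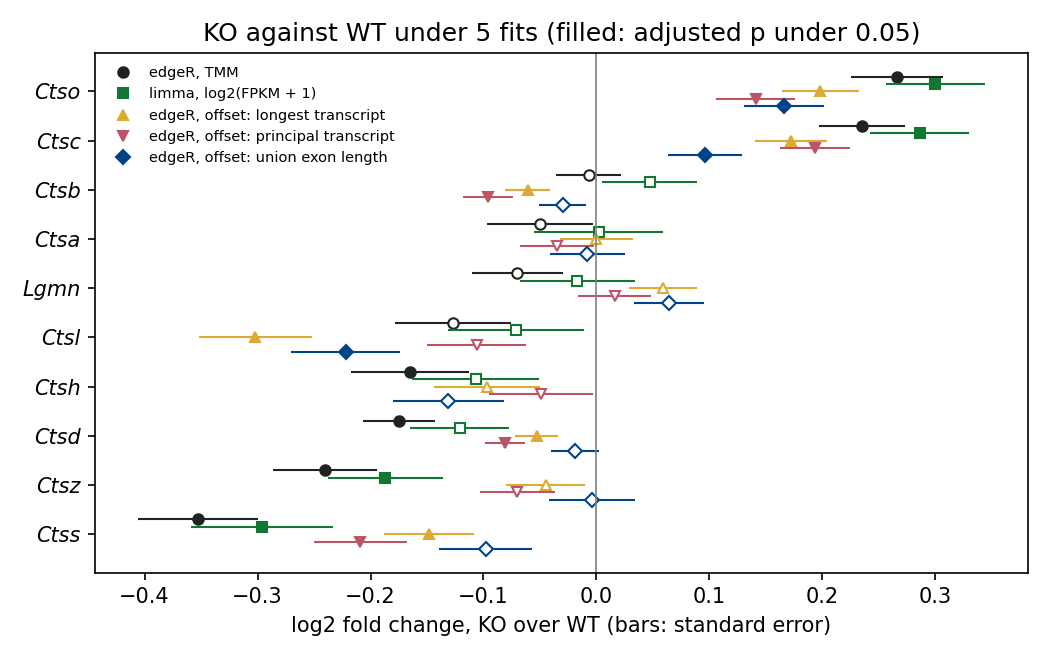
Log2 fold change (KO over WT) of each gene, with its standard error, in edgeR with TMM scaling, in limma on log2(FPKM + 1), and in edgeR with a length and GC offset from the longest transcript, the principal transcript or all exons merged. Filled points have an adjusted p under 0.05; Ctsc and Ctso lie right of 0 and are filled in all 5 fits, while Ctsz and Ctss move towards 0 with the offsets.

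Together the 10 genes took 8859 ± 8.47 FPKM in WT and 8335 ± 205 FPKM in KO, with every KO library below every WT library, or 3.13% and 2.94% of all FPKM. Ctsd was the largest part of this sum, at 52.2 ± 0.679% in WT and 51.0 ± 0.357% in KO. The share of Ctsb was 20.9 ± 0.286% in WT and 23.0 ± 0.206% in KO, and that of Ctss 10.3 ± 0.806% and 8.93 ± 0.403%. Ctsc supplied 0.964 ± 0.0232% in WT and 1.253 ± 0.0492% in KO, and Ctso 0.153 ± 0.00211% and 0.204 ± 0.0115%. Lgmn and Ctsa, whose FPKM overlapped between the groups, also took larger shares in every KO library. Shares of 1 sum depend on one another.

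**Figure D3:**
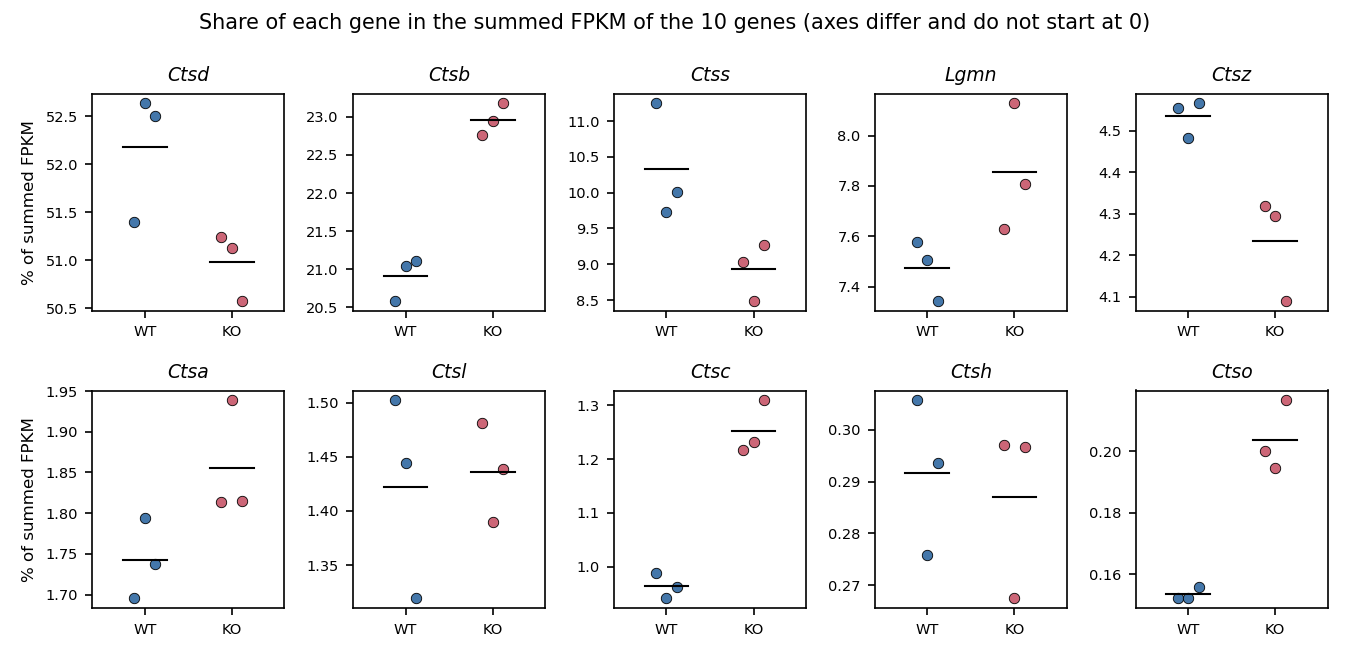
Share of each gene in the summed FPKM of the 10 genes, in percent, in 3 WT (blue) and 3 KO (red) libraries with the mean as a line; the axes differ between panels and do not start at 0. Ctsb, Lgmn, Ctsa, Ctsc and Ctso took larger shares in every KO library than in any WT library and Ctsd, Ctss and Ctsz smaller ones.

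The order of levels by FPKM was Ctsd, Ctsb, Ctss, Lgmn, Ctsz, Ctsa, Ctsl, Ctsc, Ctsh and Ctso, and each gene was above the next in all 6 libraries. The narrowest steps were those from Ctsa to Ctsl and from Ctss to Lgmn, each 1.26-fold in the mean over all 6 libraries. This order depends on the length used. The ratio of estimated count to FPKM in the table followed the length of all exons merged in 7398 of 7513 genes with over 1000 counts in WT library 1 (98.5%, tolerance 1%), so a gene with a rarely used long transcript is listed low. Rescaled to the shortest principal transcript, Ctsl stood at 415 ± 27.6 FPKM in WT rather than 126, with a range that overlapped that of Ctsz (402 ± 3.82), and Ctsc and Ctsa stood at 199 ± 4.83 and 199.6 ± 5.62 FPKM. On that scale Ctss (917 ± 72.1 FPKM) and Lgmn (838 ± 14.2 FPKM) kept their order in every WT library, and Lgmn was above Ctss in every KO library. The 4 highest genes by either length were Ctsd, Ctsb, Ctss and Lgmn.

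**Figure D4:**
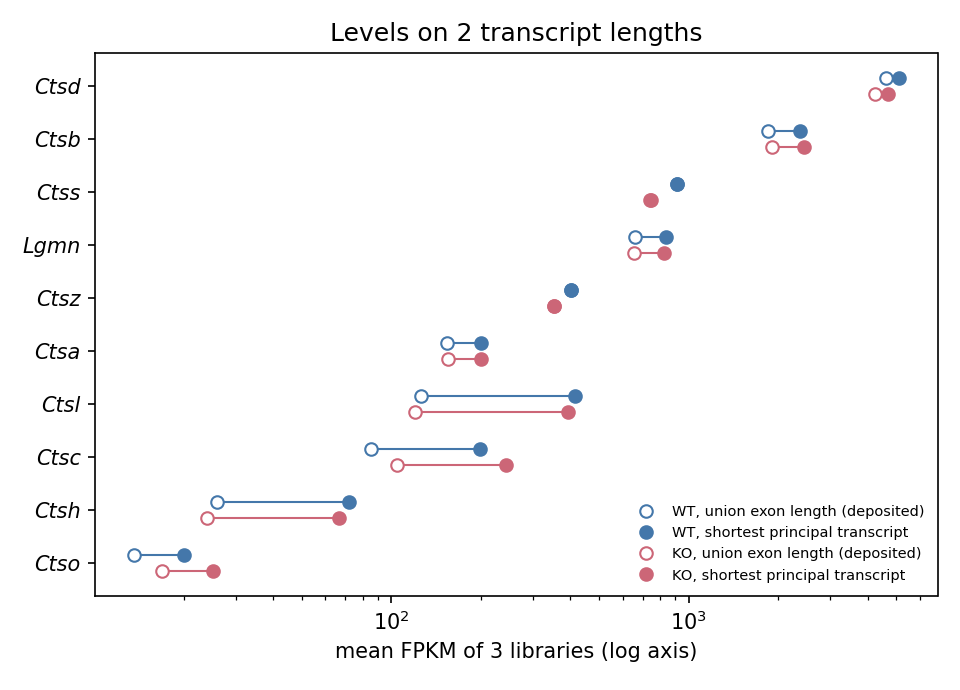
Mean FPKM of 3 libraries (log axis) per gene on the deposited length, all exons merged (open), and rescaled to the shortest principal transcript (filled), for WT (blue) and KO (red). Ctsl moves most, from 126 to 415 FPKM in WT, and Ctss and Ctsz not visibly.

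Other genes of the lysosome or tied to the cathepsins were read from lists of related function, 134 genes in all, of which 105 were tested. They include cathepsin inhibitors, MiT factors, granule serine proteases and genes of MHC class II presentation, not all of which act in the lysosome. Of the 105, 21 were higher and 32 lower in KO, against 20.3% and 19.4% of all genes tested. The inhibitors and the genes of MHC class II presentation each gave 4 of the 32 lower. The balance turned with the processing. With the longest-transcript offset 32 were higher and 16 lower, against 17% and 14.6% of all genes tested. In limma 28 were higher and 15 lower, against 23.7% and 13.7% of all genes tested. Of the other cathepsins, 3 were tested. Ctsk, the collagenase, fell from 22.1 ± 0.369 to 12.8 ± 0.0858 FPKM (edgeR log2 fold change -0.84, adjusted p = 2.06e-06), and Napsa, an aspartic protease like Ctsd, fell by 0.30 on the log2 scale, while Ctsf rose by 0.29. With the longest-transcript offset Napsa was at -0.11 and did not pass (edgeR, adjusted p = 0.279). The inhibitors had 4 lower and 0 higher of 6 tested (against 19.4% and 20.3% of all genes tested). With the longest-transcript offset 0 were lower and 1 higher (against 14.6% and 17%). In limma 2 were lower and 1 higher (against 13.7% and 23.7%). Cstb, the cytosolic cystatin B, fell from 195 ± 9.17 to 142 ± 10.1 FPKM (log2 fold change -0.51), but was at -0.05 with the longest-transcript offset (edgeR, adjusted p = 0.412). Cst3, the secreted cystatin C, was at -0.22 without and at 0.11 with the offset, so its direction turned with the processing.

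Hydrolases of sugars, lipids and nucleic acids had 9 higher and 9 lower of 33 tested, against 20.3% and 19.4% of all genes tested. With the longest-transcript offset 11 were higher and 4 lower (against 17% and 14.6%), and in limma 11 and 3 (against 23.7% and 13.7%). Acp5, the tartrate-resistant acid phosphatase, fell most, from 18.9 ± 2.55 to 5.20 ± 0.661 FPKM (edgeR log2 fold change -1.91, adjusted p = 6.55e-07). Hexa, an enzyme of ganglioside breakdown, rose from 351 ± 3.02 to 415 ± 6.14 FPKM. Ids, which removes sulfate from glycosaminoglycans, rose by 0.49 on the log2 scale. Of membrane and cargo proteins, 5 of 17 rose, among them Cd164 (0.47) and Tmem106b (0.44), and 2 fell (against 20.3% and 19.4%). With the longest-transcript offset 11 were higher and 0 lower (against 17% and 14.6%), and in limma 7 and 0 (against 23.7% and 13.7%). Cd68, among the most abundant of them, fell from 946 ± 4.84 to 883 ± 46.2 FPKM at -0.15 and turned to 0.12 with the length and GC offset.

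The vacuolar proton pump that acidifies the lysosome had 8 lower and 2 higher of 17 tested, against 19.4% and 20.3% of all genes tested. With the longest-transcript offset it had 6 and 4 (against 14.6% and 17%), and in limma 4 and 3 (against 13.7% and 23.7%). Atp6v0c, the proteolipid of its rotor, fell from 136 ± 3.01 to 114 ± 7.83 FPKM, and Atp6v0d2, a subunit raised in osteoclasts, rose from 14.6 ± 0.975 to 24.3 ± 1.07 FPKM. Genes of sorting to the lysosome had 2 higher and 2 lower of 13 (against 20.3% and 19.4% of all genes tested). With the longest-transcript offset they had 1 and 4 (against 17% and 14.6%), and in limma 2 and 0 (against 23.7% and 13.7%). Scarb2, the receptor that carries beta-glucocerebrosidase, rose from 26.8 ± 0.218 to 34.7 ± 0.599 FPKM, whereas M6pr, a mannose 6-phosphate receptor, did not pass, with 59.5 ± 0.310 FPKM in WT and 59.1 ± 1.20 in KO. Of the MiT factors, Mitf rose from 11.2 ± 0.465 to 15.7 ± 0.736 FPKM (edgeR, adjusted p = 4.78e-05), and Tfe3, Tfec and Tfeb did not pass. Genes of MHC class II presentation, in which Ctss and Lgmn act, had 4 lower and 0 higher of 6 tested (against 19.4% and 20.3%). In limma 3 were lower and 0 higher (against 13.7% and 23.7%). Ifi30, the lysosomal thiol reductase, fell from 125 ± 2.04 to 98.1 ± 3.94 FPKM. With the longest-transcript offset Ifi30 was at -0.07 and did not pass (edgeR, adjusted p = 0.216). Cd74, the invariant chain that Ctss cuts, fell from 11.6 ± 1.31 to 7.56 ± 1.52 FPKM. With that offset 1 of the 6 was lower and 0 higher (against 14.6% and 17%). The granule serine proteases that Ctsc activates were at or near 0 in both groups except Mcpt8 (2.02 ± 0.316 FPKM in WT and 1.53 ± 0.146 in KO, not past the test).

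**Figure D5:**
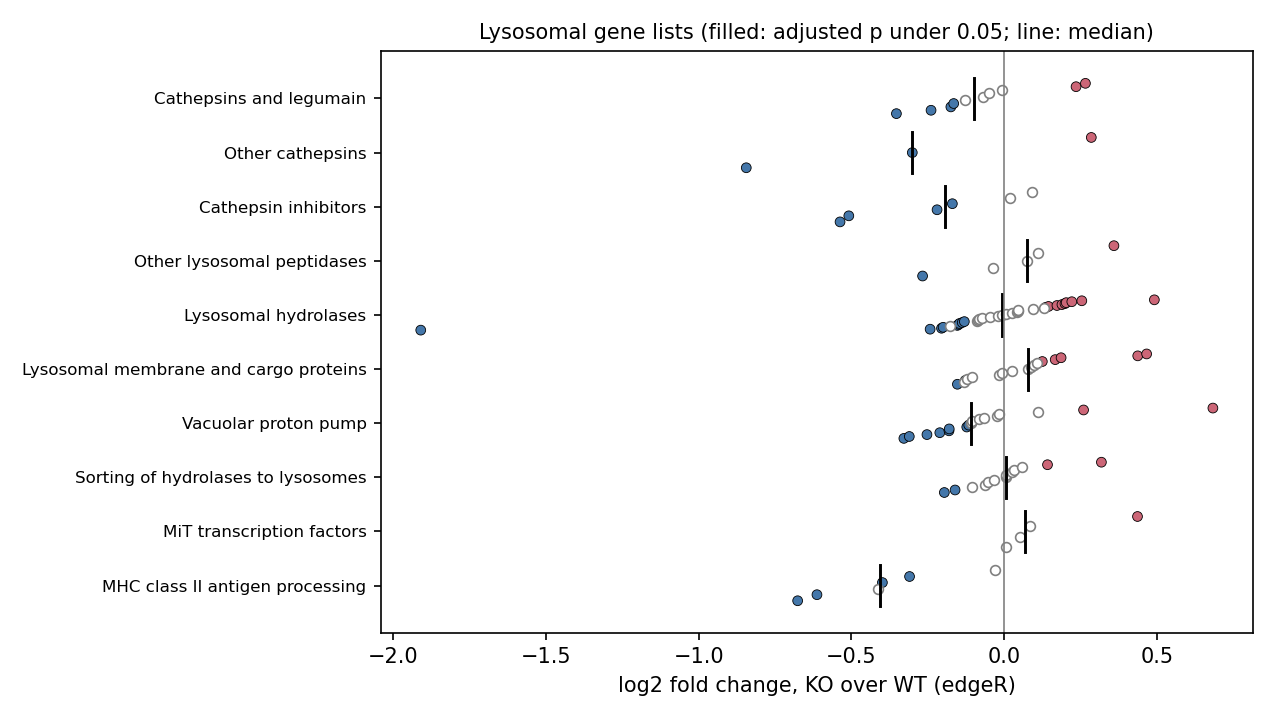
Log2 fold change (KO over WT, edgeR) of each tested gene in 10 lists of lysosomal and related genes. Filled points are past an adjusted p under 0.05, and a line marks the median of each list. Changes of the 10 cathepsins and legumain are small beside Acp5 (-1.91) and Ctsk (-0.84), and most lists hold genes of both directions.

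Markers of other cell types moved with genotype beside these results. The neutrophil list had 0 higher and 8 lower of 9 tested, against 20.3% and 19.4% of all genes tested. Ly6g, too low to be tested, was listed at 0.678, 0.971 and 0.503 FPKM in the WT libraries and at 0 in every KO library. Neutrophil markers were lowest among WT libraries in library 1, with a summed level of 86.6 FPKM there, the library in which Ctss was highest. The osteoclast list of 8 genes, summed, was at 68.1 to 77.0 FPKM in WT and 45.7 to 47.7 in KO. Of the 4 tested, 3 were lower (Ctsk, Acp5 and Mmp9) and 1 higher (Atp6v0d2), against 19.4% and 20.3% of all genes tested. The rest of that list was too low to be tested. The monocyte list was at 37.7 to 40.1 FPKM in WT and 29.0 to 31.2 in KO. It had 3 lower and 1 higher of 4 tested, against 19.4% and 20.3% of all genes tested. F13a1, which made up most of the sum, fell from 23.5 ± 0.663 to 16.2 ± 0.465 FPKM, and Ccr2 rose from 3.95 ± 0.336 to 6.79 ± 0.647 FPKM. Dendritic, B, T and NK cell markers summed to less than 1 FPKM in each library. The part of these differences in the levels of the cathepsins was not tested.

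The genes whose pattern over the 6 libraries was most like that of each member (Pearson r of log2 CPM, counts scaled to the library total, given as a description) followed the same groups. Ctsc was most like Dennd6a (r = 0.9996) and Ctso most like Ubr3 (r = 0.9994), both of which rose in KO. Ctss was most like Tpt1 (r = 0.9992), Ctsd most like Rpl18-ps1 (r = 0.9971), Ctsz most like Lap3 (r = 0.9970) and Ctsh most like Psmd14 (r = 0.9958), which fell. Since r does not measure the size of a change, Rpl18-ps1 could fall far more than Ctsd (log2 fold change -2.21 against -0.17). Ctsl was most like Abca7 (r = 0.9928), Lgmn like Mex3d (r = 0.9910), Ctsb like Icam1 (r = 0.9860) and Ctsa like Klhdc3 (r = 0.9834). Abca7, Mex3d, Icam1 and Klhdc3 did not pass the test between the groups. Among the members themselves, Ctsd and Ctsz were most alike (r = 0.986) and Ctsc and Ctso next (r = 0.970). All these values come from the same 6 libraries in 2 groups, which also differ in depth.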

How the data were processed

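RNA was selected with oligo(dT), and libraries kept the strand by dUTP marking, per the labels' protocols. The submitters' processing notes name cutadapt 1.9, HISAT2 2.0.4 and StringTie 1.3.4d; the genome build and the use of strand in counting are not given in the sources used here. The authors deposited 1 table of 27458 genes with an FPKM value and a whole-number estimated count for each library. About 4 estimated counts stood for 1 fragment (the value 4 was found 5769 times among the deposited counts, 3 was found 3204 times and 5 was found 2041 times), and the floor for a count of 0 covers counting error only.

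Gene IDs were matched to GENCODE M21 (27382 matched, 23826 with identical coordinates); gene positions are printed as the deposited table lists them, and those of the members other than Ctsa are identical to that annotation of GRCm38. The groups were tested in edgeR 4.0.16 (R 4.3.3; quasi-likelihood, TMM scaling) over the 11636 genes whose mean reached 1 FPKM, with Benjamini-Hochberg adjustment. The approximate standard error is the size of the log2 fold change divided by the square root of F. The script was tested on simulated data. Alternatives used limma 3.58.1, DESeq2 1.42.0, other scalings and filters, loess offsets (span 0.3) on length and GC content, the replicate number as a block, and each library left out. Copies were searched with minimap2 2.31.

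Named genes were the 10 members and Pebp1, up to 6 tested genes of the smallest p in each functional list and up to 3 in each marker list, and the gene most alike to each member. Overlapping genes and pseudogene copies of members (Gm49369, Gm49230, Rps13, Pltp, Fdft1, Gm14032, Gm5398 and Gm17833) and Ly6g fall outside this rule and were named after their values were seen. The members and lists were chosen with earlier results of these data known. One gene that the rule names is not reported here.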

Additional observations from a re-analysis of the deposited data

How the results depend on the processing

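Over the 10 genes and 20 alternatives, 170 of the values kept their side of the threshold, 18 lost the call and 12 gained one. No value past the threshold changed sign, while Ctsa, Ctsb and Lgmn, which did not pass, changed sign in some alternatives (up to 0.002, 0.047 and 0.064). Ctsc and Ctso were past the threshold in all 20 alternatives, and Ctss in 19, Ctsd in 17, Ctsz in 16, Ctsh in 10, Ctsl in 9, Ctsb in 3, and Ctsa and Lgmn in 0. Values below are log2 fold changes; the cause was not tested in any case.

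The call of Ctsd was lost in limma at both pseudocounts (-0.12, 1 and 0.1 FPKM) and with the offset from all exons merged (-0.019). Ctsh lost it in limma at both pseudocounts (-0.11), without a filter (-0.15), and with the offsets from the longest transcript (-0.10), the principal transcript (-0.049) and all exons merged (-0.13). Ctss lost it with all exons merged (-0.10). Ctsz lost it with the longest transcript (-0.045), the same with the replicate block (-0.046), the principal transcript (-0.07) and all exons merged (-0.004). Ctsl gained it in DESeq2 (-0.12), with library totals (-0.16), at a mean of at least 5 FPKM (-0.14), with robust spread (-0.13), with the longest transcript (-0.30), the same with the block (-0.30) and all exons merged (-0.22). Ctsb gained it with the longest transcript (-0.061), the same with the block (-0.061) and the principal transcript (-0.10).

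Leaving out each library gave -0.21 to -0.13 for Ctsh and -0.17 to -0.085 for Ctsl, which passed without WT replicate 3. The number of the 10 genes lower was 4, and 2 in limma at both pseudocounts, 1 with all exons merged, and 3 to 4 on leaving out a library. Of the genes in the other functional lists, 32 were lower, and 15 and 13 in limma (pseudocount 1 and 0.1). The number was 16 without a filter, 16 with the longest transcript and 17 with the block and that offset. It was 15 with the principal transcript, 18 with all exons merged and 22 to 27 on leaving out a library. Of the same lists, 21 genes were higher, and 32 with the longest-transcript offset (with and without the block) and 17 to 22 on leaving out a library. Over all genes, limma with 0.1 FPKM gave 1500 lower against 2253.

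The deviations of same-numbered libraries were weakly correlated (r = 0.02, 0.19 and -0.04), and those of other pairs ran from -0.17 to 0.16. Such values cannot settle whether the numbers pair the samples, and the labels do not state it. With the replicate block 2 of the 10 were higher and 5 lower, with Ctsl added at -0.13. On the principal transcript, WT levels in FPKM were 5109 for Ctsd, 2363 for Ctsb, 838 for Lgmn, 199.6 for Ctsa, 415 for Ctsl, 199 for Ctsc, 71.9 for Ctsh and 20.1 for Ctso. The offsets from the principal transcript and from all exons merged and this rescaling were chosen after seeing the data.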
